A study of Rattus norvegicus with 12 samples.

Results

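Cultured hippocampal neurons of the rat that had been deprived of fast excitatory input for 26 h were compared with cultures deprived of it for 9 h, over every gene on the array. The comparison takes 6 of the 12 arrays of the series, chosen by their titles: 3 of blocked cultures at 26 h and 3 of blocked cultures at 9 h. All 4 groups of the series were hippocampal cultures of Wistar rats from embryonic day 18, grown for 14 to 15 days. Blocked cultures received GYKI-52466 at 50 µM, an antagonist of AMPA-type glutamate receptors, together with MK-801 at 10 µM, an antagonist of the NMDA type. Untreated cultures at 9 h and at 26 h, with 3 arrays each, give the same time step without the drugs. Per the labels, the samples of a group came from independent cultures. These are arrays of whole cultures, in which fewer cells of a type and less RNA per cell cannot be told apart.

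Neurons read their own firing through calcium. Calcium that enters through NMDA receptors and voltage-gated channels activates kinases that act on transcription factors such as CREB, SRF and MEF2, and these switch on immediate early genes and, after them, genes for growth factors, neuropeptides and synaptic regulators. When excitatory input is withheld for long, that programme loses its drive, and neurons strengthen their remaining synapses in a response known as synaptic scaling.

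Each array held 42877 spots. The share well above background was 77.6% to 81.8% on blocked 26 h arrays and 83.7% to 86.5% on blocked 9 h arrays. Levels are given as log2 of the processed signal less the 75th percentile of the array, so that 0 is that percentile, and a change is the level at 26 h minus the level at 9 h. Arrays of a group correlated at 0.985 to 0.994 across probes. The headers show 2 scan days that cross the groups: blocked 26 h and untreated 9 h arrays were scanned on day 1, and blocked 9 h and untreated 26 h arrays on day 2. The change in blocked cultures therefore carries the step from day 2 to day 1, and the change in untreated cultures carries that step the other way. The 5 spike-in control probes below saturation differed by -4.9 to -1.95 log2 between blocked 26 h and blocked 9 h arrays, and by 1.75 to 4.96 log2 between untreated 26 h and 9 h arrays. In the blocked comparison alone, time and scan day cannot be told apart. Results are therefore read beside the untreated arrays: a change was called shared when it passed in blocked cultures and in the average of both time changes, which balances the scan days, and had the same direction in both. A shared change therefore need not have passed in untreated cultures by itself. A gene was called apart when blocked 26 h arrays differed in the same direction from all 3 other groups, among them untreated 9 h arrays of the same slides and scan day. A gene changed by blockade at both times and shifted by scan day can stand apart without a change over time. Standing apart therefore does not by itself separate time from scan day.

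Between 9 h and 26 h of blockade, 5321 of 21250 genes or unnamed targets passed limma's test at an adjusted p of 0.05. Of these, 2236 were higher at 26 h (10.5% of those tested) and 3085 were lower (14.5%), and 245 and 502 of them changed at least 2-fold. With the median of each array in place of its 75th percentile, the calls split into 2555 higher and 2553 lower. A fit that blocked on replicate number called 8785 genes, 3740 higher and 5045 lower. The count depended on the arrays included: without the replicate 2 arrays of all groups 15 genes passed, against 2965 without replicate 1 and 1763 without replicate 3. These fits did not block on replicate number, and leaving out replicates with that block was not tested. They therefore do not show in which cultures the changes lie. Without replicate 2, 104 of the called genes named below lost their call and Gprc5a kept it. Without replicate 1 of all groups 19 of these calls ended, and without replicate 3, 25. Those of Aqp4, Bdnf, Ces1d, Cldn14, Cntn2, Hrk, Itgam, Mgat4d, Rgr and Slc17a7 ended without each of the 3 replicates in turn. No member of any of the 38 gene lists passed without replicate 2. Leaving out a single blocked array left between 3558 and 4033 calls.

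In untreated cultures, 2198 genes were higher at 26 h than at 9 h (10.3%) and 2090 were lower (9.84%). In the average of both time changes, 1048 were higher (4.93%) and 1653 lower (7.78%). Of the genes called in blocked cultures, 1341 were shared, 458 higher and 883 lower. Another 1426 had passed in the opposite direction in untreated cultures, which is the pattern in which time under blockade and scan day cannot be told apart. Blocked 26 h arrays stood apart from all 3 other groups for 714 genes, 285 higher (1.34%) and 429 lower (2.02%), and 328 of these were also shared. The sign of the change was the same in untreated cultures for 33.17% of the called genes and for 40.0% of all genes. With the replicate block, 5689 genes passed in the average of both time changes and 1883 stood apart.

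**Figure D1:**
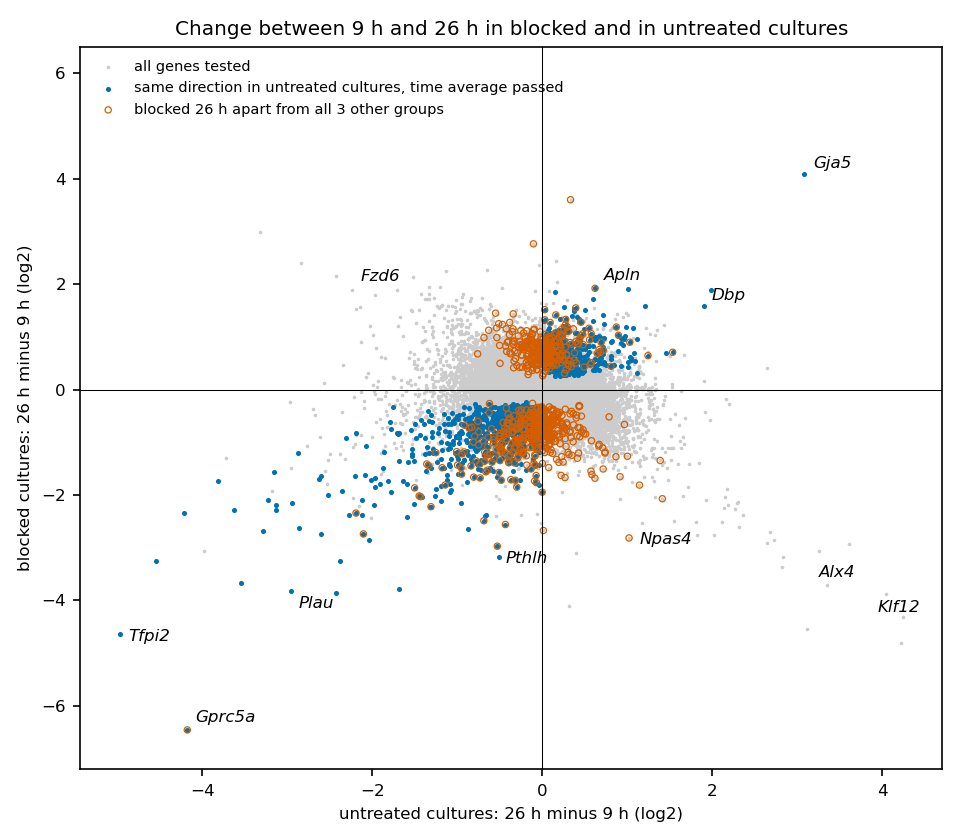
Change between 9 h and 26 h (log2) of each of the 21250 genes or targets tested, untreated cultures on the horizontal axis and blocked cultures on the vertical axis. Blue points are the 1341 shared changes and orange rings the 714 genes at which blocked 26 h arrays stood apart from all 3 other groups. Gprc5a lies at the lower left with a fall in both, and Klf12 at the lower right with opposite directions.

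Part of the genes driven by neuronal activity fell between 9 h and 26 h of blockade. Of 26 immediate early genes measured, 11 fell (42.3%, against 14.5% of all genes) and none rose (15 did not pass). This list, like the others below, was chosen with earlier results of these data known. Its share beside that of all genes is therefore a description and not a test. The median change of the 26 was -0.55 log2 against -0.078 over all genes. Of the 11, 10 stood apart from all 3 other groups and 5 were shared. For the falls that were not shared, time and scan day cannot be told apart. In the average of both time changes Npas4, Arc, Egr1 and Dusp1, described below, did not pass (adjusted p = 0.179, 0.152, 0.296 and 0.51). In untreated cultures 3 of the 26 rose and 5 fell. Without the blocked 9 h array of replicate 3 the count of falls was 6, without the blocked 26 h array of replicate 2 it was 7, and without the replicate 1 or 2 arrays of all groups it was 4 or 0. The replicate block gave 13 falls and 1 rise.

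Npas4, a transcription factor that neurons switch on with calcium entry, was well above background on the other 9 arrays and on none of the blocked 26 h arrays. Its level on the 3 blocked 9 h arrays, in the order of the replicate numbers, was -6.11, -6.08 and -4.49, and on the blocked 26 h arrays -8.14, -8.10 and -8.88. It was at least 4.78-fold lower at 26 h (adjusted p = 0.00587), where a bound sets the bright group against the lowest signal well above background on the dim arrays. Against untreated 26 h arrays it was at least 61.4-fold lower. With normexp background correction its change was -1.06 log2 and no longer passed.

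Arc, whose protein removes AMPA receptors from synapses, read -0.41, -0.84 and -0.01 at 9 h of blockade and -1.89, -2.30 and -2.08 at 26 h. The groups did not overlap, and the fall was 1.67 log2 (SE 0.412, adjusted p = 0.0152). Untreated cultures had 1.41 ± 0.99 at 9 h and 1.68 ± 0.28 at 26 h (SD, n = 3), so that Arc was lower in blocked cultures at both times. The call ended without the blocked 26 h array of replicate 2 or the blocked 9 h array of replicate 3.

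Nr4a1, an orphan nuclear receptor, read -0.56, -0.81 and -0.22 at 9 h of blockade and -1.96, -1.76 and -1.91 at 26 h, a change of -1.34 log2 (SE 0.339, adjusted p = 0.0166). In untreated cultures it rose by 1.39 log2 over the same time (adjusted p = 0.0172), from 0.66 ± 0.53 to 2.05 ± 0.68 (SD, n = 3). The average of both changes did not pass (0.02 log2, adjusted p = 0.98), and time and scan day cannot be told apart here. The call in blocked cultures ended without the blocked 26 h array of replicate 1 or the blocked 9 h array of replicate 3. Egr1, a zinc finger factor, fell by 1.20 log2 (adjusted p = 0.017), from 0.26, 0.15 and 0.82 to -0.81, -0.89 and -0.69, and its call ended without the blocked 26 h array of replicate 2 or the blocked 9 h array of replicate 3. Egr4 fell by 1.36 log2 (adjusted p = 0.00374), from 1.08, 0.69 and 0.75 to -0.53, -0.36 and -0.67. Fos, a subunit of the AP-1 factor, did not pass: its change was -0.64 log2 (SE 0.266, adjusted p = 0.109), and the groups overlapped.

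Dusp1, a phosphatase that inactivates MAP kinases, fell by 1.07 log2 (SE 0.236, adjusted p = 0.00941). Its arrays read -4.33, -4.71 and -4.0 at 9 h and -5.57, -5.32 and -5.35 at 26 h, and both untreated groups lay higher, at -3.80 ± 0.35 and -3.14 ± 0.35 (SD, n = 3). Gadd45b, a stress and activity sensor, fell by 0.95 log2 in blocked and by 0.57 log2 in untreated cultures (adjusted p = 0.00238 and 0.027). Maff, a small Maf factor, fell by 2.03 log2 in blocked and by 1.43 log2 in untreated cultures (adjusted p = 0.000522 and 0.0022), and its level in blocked 26 h arrays was lower than in every other group. With normexp the blocked change of Maff was -1.31 log2. Of 19 MAPK and RAS feedback genes, 5 fell (26.3%, against 14.5% of all genes), 1 rose and 13 did not pass. The falls were 3 without the blocked 26 h array of replicate 3 or the blocked 9 h array of replicate 2. Dusp10, another phosphatase of this kind, fell by 1.28 log2 (adjusted p = 0.000635) while it rose by 0.57 log2 in untreated cultures (adjusted p = 0.0235), but it was well above background on only 1 of the 3 blocked 26 h arrays, and its change was -0.62 log2 with normexp.

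CREB binds the cAMP response element, whose full site is TGACGTCA and whose shorter core is TGACG. Promoters of 3 genes that fell are shown here as examples because 11 of the 26 immediate early genes had fallen. The 3 were picked by name, so that their sites do not speak for the list. The window is the 250 bases before the first start listed by RefSeq on the assembly GRCr8, and each site was searched on both strands, so that a full site holds the core on each strand. The full site was present in 5 of 20 immediate early promoters matched (25.0%) and in 2.78% of the 10112 promoters matched among genes tested. The core was present in 14 of the 20 (70.0%) and in 26.17% of those of genes tested. The shares of 25.0% and 70.0% are over the whole list, with members that did not fall. Among the 248 promoters matched of genes at which blocked 26 h arrays were lower than all 3 other groups, 13 held the full site (5.24%). Among the 171 of genes at which they were higher, 5 did (2.92%). The core was present in 30.65% of the 248 and in 23.39% of the 171. Of the 514 promoters matched of shared falls, 18 held the full site (3.5%) and 162 the core (31.52%). A match describes the letters only. The promoters of Nr4a1 (chr7:134259888-134260137, plus strand), Dusp1 (chr10:17184603-17184852, plus strand) and Maff (chr7:112792537-112792786, plus strand) follow 5′ to 3′, with full sites and cores in capitals. That of Nr4a1 holds 4 cores and no full site, that of Dusp1 a full site and a further core, and that of Maff a full site.
Nr4a1: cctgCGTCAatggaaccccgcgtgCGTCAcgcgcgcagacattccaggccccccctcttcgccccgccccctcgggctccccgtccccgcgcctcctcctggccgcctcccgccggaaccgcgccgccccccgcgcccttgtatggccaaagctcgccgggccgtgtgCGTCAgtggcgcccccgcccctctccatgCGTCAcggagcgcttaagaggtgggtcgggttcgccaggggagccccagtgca
Dusp1: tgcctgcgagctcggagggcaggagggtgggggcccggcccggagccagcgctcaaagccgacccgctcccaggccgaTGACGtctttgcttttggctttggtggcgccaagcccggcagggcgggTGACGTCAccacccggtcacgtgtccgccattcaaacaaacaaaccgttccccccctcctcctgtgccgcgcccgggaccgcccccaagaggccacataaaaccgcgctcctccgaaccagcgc
Maff: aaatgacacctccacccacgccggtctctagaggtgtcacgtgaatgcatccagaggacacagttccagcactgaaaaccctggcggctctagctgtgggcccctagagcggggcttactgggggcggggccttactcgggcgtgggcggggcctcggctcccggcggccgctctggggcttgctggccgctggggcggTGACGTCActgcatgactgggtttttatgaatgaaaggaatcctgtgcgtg

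Late activity-driven genes follow the immediate early genes in this programme. Of 35 late activity-driven genes measured, 19 fell (54.3%, against 14.5% of all genes) and 2 rose, with a median change of -0.65 log2. As this list too was chosen with earlier results of these data known, its share is a description and not a test. Of the 19, 18 stood apart from all 3 other groups and 11 were shared. For the falls that were not shared, time and scan day cannot be told apart. In untreated cultures 2 of the 35 fell and 5 rose, with a median of -0.12 log2. The count of falls was 12 without the replicate 1 arrays of all groups, 12 without replicate 3 and 0 without replicate 2.

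Pthlh, which encodes a parathyroid hormone-like peptide, fell by 2.97 log2 (SE 0.254, adjusted p = 0.000318). Its arrays read 0.54, -0.24 and 0.35 at 9 h of blockade and -2.68, -2.90 and -2.68 at 26 h. The blocked 9 h level was 0.22 ± 0.40 and the untreated 9 h level 0.20 ± 0.22 (SD, n = 3), and these arrays overlapped. At 26 h the blocked level was 2.42 log2 below the untreated level (adjusted p = 0.000593). Its change differed from the untreated change by -2.44 log2 (adjusted p = 0.00104).

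Bdnf, the neurotrophin whose transcription follows calcium entry, was lower in blocked than in untreated cultures at both times. It read -2.18, -2.21 and -2.43 at 9 h of blockade and -2.76, -3.02 and -3.02 at 26 h, a change of -0.66 log2 (SE 0.149, adjusted p = 0.01), and the call ended without replicate 1, 2 or 3 of all groups. In untreated cultures it rose by 0.97 log2 (adjusted p = 0.0022), to 0.47 ± 0.27 (SD, n = 3), so that the blocked level at 26 h was 3.41 log2 below the untreated one (adjusted p = 8.2e-06). The average of both time changes of Bdnf did not pass (0.15 log2, adjusted p = 0.416). For its change under blockade, time and scan day cannot be told apart.

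Secreted organisers and peptides of the list were among the falls. Nptx2, a pentraxin that clusters AMPA receptors, fell by 1.27 log2 (adjusted p = 0.00557), from 0.50, 0.64 and 0.68 to -1.04, -0.57 and -0.36. Adcyap1, the precursor of the peptide PACAP, fell by 1.20 log2 (adjusted p = 0.00214), from -2.36, -2.13 and -2.69 to -3.55, -3.60 and -3.65. Crh, corticotropin-releasing hormone, fell by 1.11 log2 (adjusted p = 0.000684), from -1.84, -1.84 and -1.98 to -2.80, -3.13 and -3.07. The 9 h and 26 h arrays of blockade did not overlap for any of these 3 genes, and none of the 3 passed in untreated cultures. Inhba, a subunit of activin, changed by -0.92 log2 (adjusted p = 0.0421), and each of the 6 blocked arrays, when left out, ended the call, as did slide as a random block and no filter on dim probes. Among 32 neuropeptides and processing genes, 8 fell (25.0%, against 14.5% of all genes) and 1 rose. Of the 8, 5 stood apart from every other group, and with the replicate block 4 genes of the list rose.

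Trpc6, a calcium-permeable channel, fell by 1.41 log2 in blocked cultures (adjusted p = 0.00055), from -2.63, -3.0 and -2.96 to -4.02, -4.35 and -4.45, and by 0.73 log2 in untreated ones (adjusted p = 0.00968). Rgs4, which shortens G protein signalling, fell by 0.76 log2 (adjusted p = 0.00515) and rose by 0.48 log2 in untreated cultures (adjusted p = 0.0436). The average of both changes of Rgs4 did not pass (-0.14 log2, adjusted p = 0.45), and time and scan day cannot be told apart here. Mmp13, a collagenase, fell by 1.39 log2 (adjusted p = 0.000776), and it was well above background on 2 of the 3 blocked 26 h arrays and changed by -0.62 log2 with normexp. Homer1, a postsynaptic scaffold that is also an activity gene, did not pass, with 0.15 log2 (SE 0.109, adjusted p = 0.332), and the array did not tell its short and long forms apart here.

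**Figure D2:**
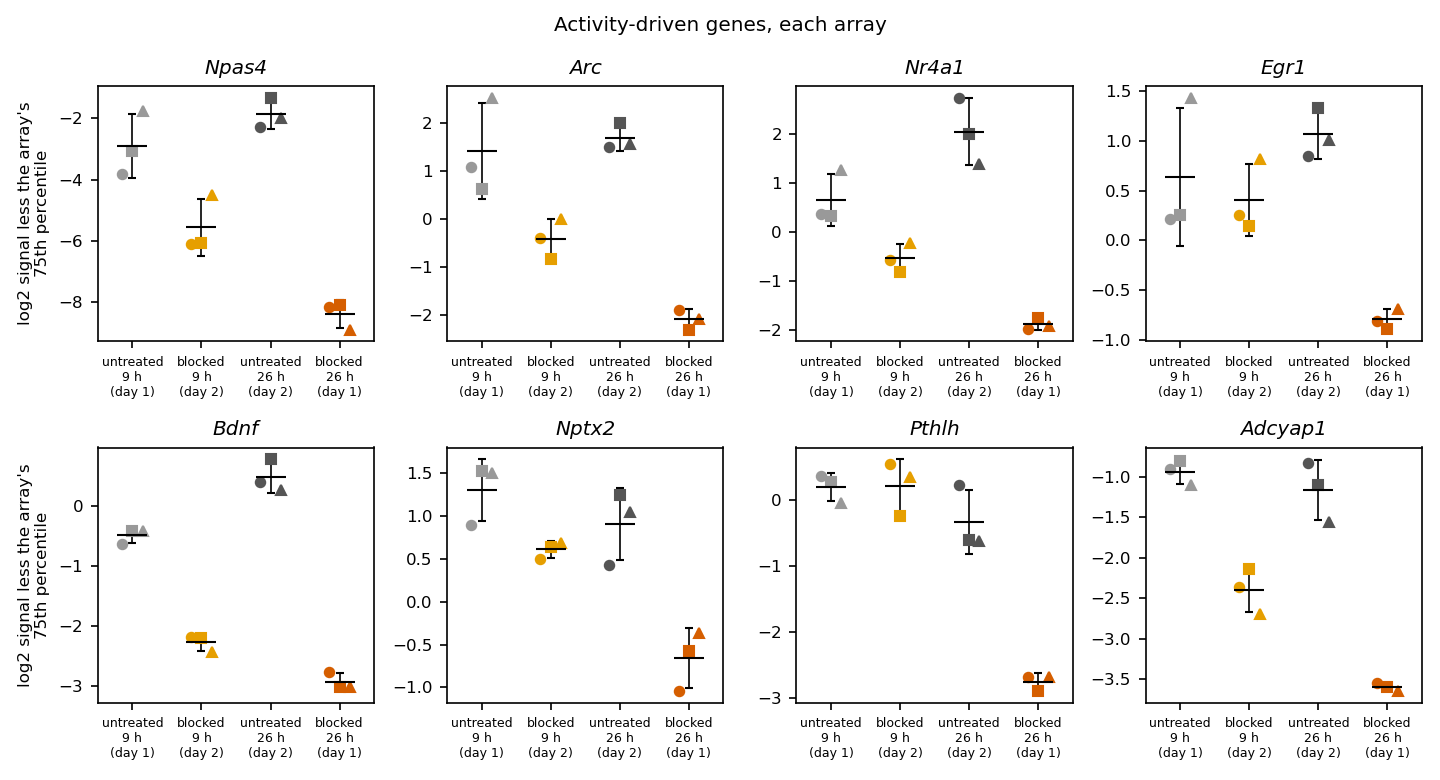
Level of 8 activity-driven genes on each of the 12 arrays (log2 processed signal less the 75th percentile of the array), by group with the scan day in brackets. Circles, squares and triangles are replicates 1, 2 and 3, and bars give the mean and SD (n = 3). Blocked 26 h arrays are lowest in all 8 panels, and Npas4 was not well above background there.

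Over all genes at which blocked 26 h arrays stood apart, by the smallest of their 3 differences, the leading falls with a symbol were those of Gprc5a, Npas4, Tmprss11d, Pthlh, Nmbr and Sele. Npas4 and Pthlh are on the activity lists above. Tmprss11d, a membrane serine protease, was well above background on the other 9 arrays and on no blocked 26 h array, at least 4.13-fold below blocked 9 h (adjusted p = 0.00136). Nmbr, the neuromedin B receptor, was likewise above background everywhere else and at least 2.19-fold below blocked 9 h (adjusted p = 0.00221). It rose by 1.41 log2 in untreated cultures (adjusted p = 0.0144). The average of both changes of Nmbr did not pass (adjusted p = 0.435), and time and scan day cannot be told apart here. Sele, an endothelial adhesion molecule, was at least 2.46-fold lower (adjusted p = 0.000625). These 3 were dim on every array, from -7.59 to -4.56 log2 where they were detected. With normexp, Tmprss11d, Nmbr and Sele changed by -1.0, -0.64 and -0.69 log2, less than these bounds.

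The leading rises of this kind were Mgat4d, Rspo3, Il34, Ces1d, Pde1a and Majin. Il34, a ligand of the microglial receptor CSF1R, read 0.59, 0.03 and 0.22 at 9 h of blockade and 1.80, 1.65 and 1.64 at 26 h, a rise of 1.42 log2 (SE 0.172, adjusted p = 0.000697). Its untreated levels were -0.33 ± 0.18 and -0.17 ± 0.26 (SD, n = 3), and no array of another group reached a blocked 26 h array. Rspo3, a secreted enhancer of Wnt signalling, rose by 1.55 log2 (SE 0.255, adjusted p = 0.00246), from -3.11, -3.52 and -3.45 to -1.31, -1.94 and -2.19. Pde1a, a phosphodiesterase controlled by calmodulin, rose by 1.27 log2 (SE 0.167, adjusted p = 0.000942), from -2.06, -2.21 and -2.19 to -0.64, -1.02 and -0.99. The changes of Il34, Rspo3 and Pde1a each differed from the untreated change, by 1.26, 1.16 and 1.18 log2 (adjusted p = 0.00392, 0.0361 and 0.00466).

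The other rises of this group were dimmer. Mgat4d, a glycosyltransferase-like gene, was not well above background on any blocked 9 h array and read -4.14, -7.50 and -3.80 at 26 h, at least 11.4-fold higher (adjusted p = 0.0174). Its call ended without the blocked 26 h array of replicate 1 or 3 or the blocked 9 h array of replicate 3. Ces1d, a carboxylesterase, rose by 1.25 log2 (adjusted p = 0.015) and Majin, a meiotic telomere gene, by 1.24 log2 (adjusted p = 0.0142). Both calls ended without the blocked 26 h array of replicate 2 or the blocked 9 h array of replicate 1, and that of Ces1d also without the blocked 9 h array of replicate 3. With normexp the rises of Mgat4d, Ces1d and Majin were 1.31, 0.56 and 0.65 log2. Ces1d belongs to a multigene family whose members a probe may not tell apart.

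Apln, the precursor of the peptide apelin, rose the most among well detected genes that were both shared and apart. It read -2.92, -2.83 and -2.63 at 9 h of blockade and -0.90, -0.74 and -0.98 at 26 h, a rise of 1.92 log2 (SE 0.146, adjusted p = 0.000205). In untreated cultures it rose by 0.62 log2 (adjusted p = 0.0144), and the 2 changes differed by 1.30 log2 (adjusted p = 0.00151).

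**Figure D3:**
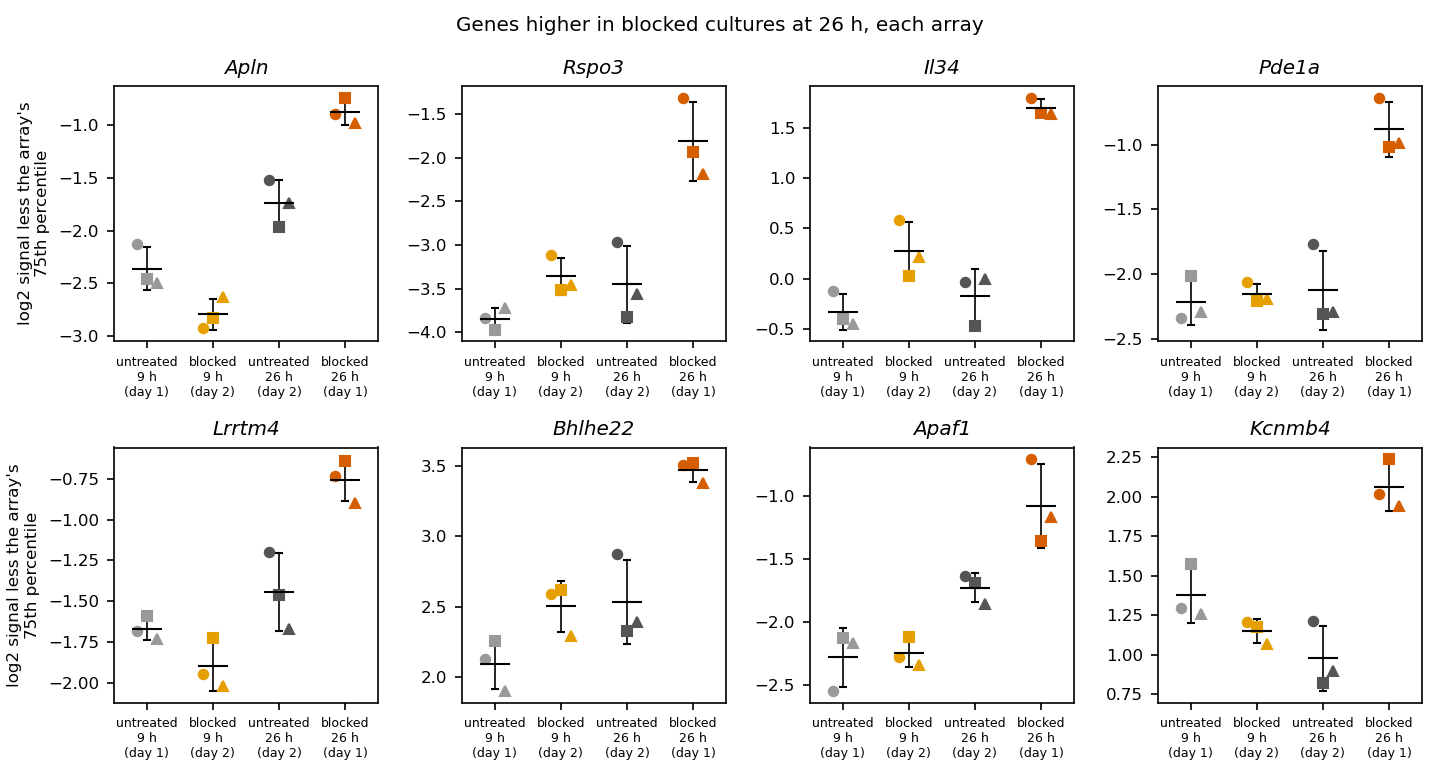
Level of 8 genes that rose in blocked cultures between 9 h and 26 h, on each of the 12 arrays (log2 processed signal less the 75th percentile of the array). Circles, squares and triangles are replicates 1, 2 and 3, and bars give the mean and SD (n = 3). Blocked 26 h arrays are the highest group in all 8 panels.

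Many of the largest falls took place in untreated cultures too. Gprc5a, an orphan receptor induced by retinoic acid, fell the most of all genes with a symbol. It read 1.82, 1.24 and 1.46 at 9 h of blockade and -5.09, -5.56 and -4.20 at 26 h, a change of -6.46 log2 (SE 0.383, adjusted p = 4.46e-05). Untreated cultures showed a change of -4.18 log2 (adjusted p = 0.000283), and the fall under blockade was the larger by 2.28 log2 (adjusted p = 0.0106).

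Tfpi2 and Plau were among the shared falls. Tfpi2, an inhibitor of serine proteases, read -3.57, -6.20 and -5.27 at 9 h of blockade and was not well above background on any array at 26 h. It was at least 6.99-fold lower in blocked and at least 11.3-fold lower in untreated cultures (adjusted p = 0.00144 and 0.00134). Plau, the urokinase-type plasminogen activator, was at least 4.53-fold lower at 26 h of blockade (adjusted p = 0.00109). In untreated cultures Plau fell by 2.96 log2 (adjusted p = 0.00409), and 2 of 3 arrays at 26 h were well above background. Hsd17b2, a steroid dehydrogenase, was at least 3.78-fold lower in blocked and at least 6.75-fold lower in untreated cultures (adjusted p = 0.000428 and 0.000396). Adam2 and Mptx1, known from sperm and gut, were at least 4.99-fold and 5.50-fold lower in blocked cultures (adjusted p = 0.000504 and 0.000693), with a fall in untreated cultures as well. With normexp, Tfpi2, Plau, Hsd17b2, Adam2 and Mptx1 changed by -1.66, -1.12, -1.04, -1.18 and -1.07 log2 under blockade, in each case less than the bound.

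Flnc and Cldn14 fell in both kinds of culture, and the matrix list gave a share of falls near that over all genes. Flnc, an actin crosslinker, fell by 2.74 log2 in blocked and 2.61 log2 in untreated cultures (adjusted p = 0.0072 and 0.0104), and its blocked arrays read -0.63, -1.24 and -0.13 at 9 h and -3.48, -4.16 and -2.56 at 26 h. Cldn14, a tight junction protein, fell by 2.68 log2 (adjusted p = 0.0367), but leaving out any of 5 of the 6 blocked arrays, all but that of replicate 2 at 26 h, ended the call, as did a fit of the 6 blocked arrays alone. It was well above background on 2 of the 3 blocked 26 h arrays, and with normexp its change was -1.09 log2. Of 33 matrix and protease genes, 6 fell (18.2%, against 14.5% of all genes), 2 rose and 25 did not pass, and the replicate block gave 14 falls and 4 rises. Has2, a hyaluronan synthase, was at least 3.10-fold lower (adjusted p = 0.000717), and Acan, which encodes aggrecan of perineuronal nets, fell by 1.43 log2 (adjusted p = 0.000891). Both fell in untreated cultures too, by 1.31 and 1.0 log2 (adjusted p = 0.00824 and 0.00504). With normexp the change of Has2 was -0.75 log2, less than its bound.

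Hbegf, Crem, Srxn1 and Txnrd1 were also among the shared falls. Hbegf, a ligand of the EGF receptor, fell by 2.0 log2 in blocked and 2.52 log2 in untreated cultures (adjusted p = 0.00127 and 0.000607), from 0.15, -0.49 and 0.43 to -1.82, -2.24 and -1.85 under blockade. Crem, a CREB relative that answers to cAMP, fell by 1.44 and 1.34 log2 (adjusted p = 0.000514 and 0.000697), and its blocked level at 26 h was below that of every other group. Srxn1, a sulfiredoxin controlled by NRF2, fell by 1.62 and 2.09 log2 (adjusted p = 0.000428 and 0.00017). It was saturated on 2 of the 3 untreated 9 h arrays, so that the untreated change is limited at the top and the difference of both changes with it. Txnrd1, a thioredoxin reductase of the same pathway, fell by 1.22 and 0.68 log2 (adjusted p = 0.00289 and 0.0434). The blocked changes of Hbegf, Crem, Srxn1 and Txnrd1 did not pass the test of a difference from the untreated ones (adjusted p from 0.15 to 0.766). Of 25 antioxidant genes, 4 fell (16.0%, near the 14.5% of all genes) and 1 rose, or 4 and 3 with the replicate block.

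Among shared rises, Dbp rose in both kinds of culture. Dbp, a PAR bZIP factor and an output of the circadian clock, read 1.84, 1.82 and 1.44 at 9 h of blockade and 3.27, 3.34 and 3.25 at 26 h, a rise of 1.58 log2 (SE 0.139, adjusted p = 0.000331). Over the same time in untreated cultures it rose by 1.90 log2 (adjusted p = 0.00014). The difference of the 2 changes was -0.31 log2 and did not pass (adjusted p = 0.266).

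Within the clock, the genes did not move as a unit. Of 18 clock genes measured, 4 rose and 4 fell in blocked cultures (22.2% each way, against 10.5% and 14.5% of all genes). In untreated cultures 9 rose and none fell. The 4 falls under blockade became 2 without the blocked 26 h array of replicate 2 or the blocked 9 h array of replicate 1 or 3. Per2, a repressor arm of the clock, rose by 0.70 log2 in blocked cultures (adjusted p = 0.0061), from -2.60, -2.74 and -2.79 to -1.79, -2.03 and -2.22, and by 1.46 log2 in untreated ones (adjusted p = 0.000311), the larger rise by 0.76 log2 (adjusted p = 0.0163). Nfil3, which represses at the sites that Dbp activates, fell by 1.26 log2 under blockade (adjusted p = 0.00174), from -1.32, -1.35 and -1.30 to -2.62, -2.99 and -2.16. In untreated cultures Nfil3 rose by 1.0 log2 (adjusted p = 0.00603), and its blocked 26 h level was below that of all 3 other groups. The average of both changes of Nfil3 did not pass (-0.13 log2, adjusted p = 0.62). Per3 fell by 0.75 log2 (adjusted p = 0.00163) on its brightest probe, and the mean over its 3 kept probes gave 0.09 log2. On the brightest probe Per3 rose by 0.80 log2 in untreated cultures (adjusted p = 0.00153). The average of both changes there did not pass (0.025 log2, adjusted p = 0.911). For the changes of Nfil3 and Per3 under blockade, time and scan day cannot be told apart. Per1 did not pass (-0.16 log2, SE 0.177, adjusted p = 0.553).

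Dbp and Nfil3 bind the D-box, searched here as TTATGTAA or TTACGTAA on both strands of the same window. It was present in 6 of the 283 promoters matched of shared rises (2.12%), in 3 of the 171 of rises apart from all 3 other groups (1.75%), in 1 of 15 of clock genes (6.67%) and in 0.66% of those of genes tested. That of Per2 (chr9:99496994-99497243, minus strand, GRCr8, RefSeq) is shown 5′ to 3′ because it is the clock promoter with a match, in capitals.
Per2: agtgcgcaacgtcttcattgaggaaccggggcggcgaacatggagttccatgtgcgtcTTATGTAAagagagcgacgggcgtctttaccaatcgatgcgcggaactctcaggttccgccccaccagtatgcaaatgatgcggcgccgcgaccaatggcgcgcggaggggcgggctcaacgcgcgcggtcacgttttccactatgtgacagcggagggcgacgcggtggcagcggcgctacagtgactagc

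Nat8f5, an acetyltransferase of a multigene family, rose by 1.90 log2 in blocked and 1.98 log2 in untreated cultures (adjusted p = 0.000514 and 0.000411), from -7.01, -6.82 and -6.99 to -5.54, -4.83 and -4.74. C5h8orf34 rose by 1.59 and 1.21 log2 (adjusted p = 0.00179 and 0.00736). Gja5, the gap junction protein connexin 40, rose by 4.09 log2 (SE 0.914, adjusted p = 0.00981) and was well above background on 2 of 3 blocked 9 h arrays. With normexp background correction the rise of Gja5 was 1.69 log2, and that of Nat8f5 was 0.79 log2. Acss1, a mitochondrial acetyl-CoA synthetase, rose by 1.18 log2 (adjusted p = 0.0164) and Rgr, a retinal opsin, by 1.02 log2 (adjusted p = 0.0148), or by 0.49 log2 with normexp. Both calls ended without the blocked 26 h array of replicate 2 or the blocked 9 h array of replicate 1. That of Acss1 also ended without the 26 h array of replicate 3, and that of Rgr without the 9 h array of replicate 3. Neurod1, a neurogenic factor, rose by 0.85 and 0.95 log2 (adjusted p = 0.00511 and 0.0037).

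**Figure D4:**
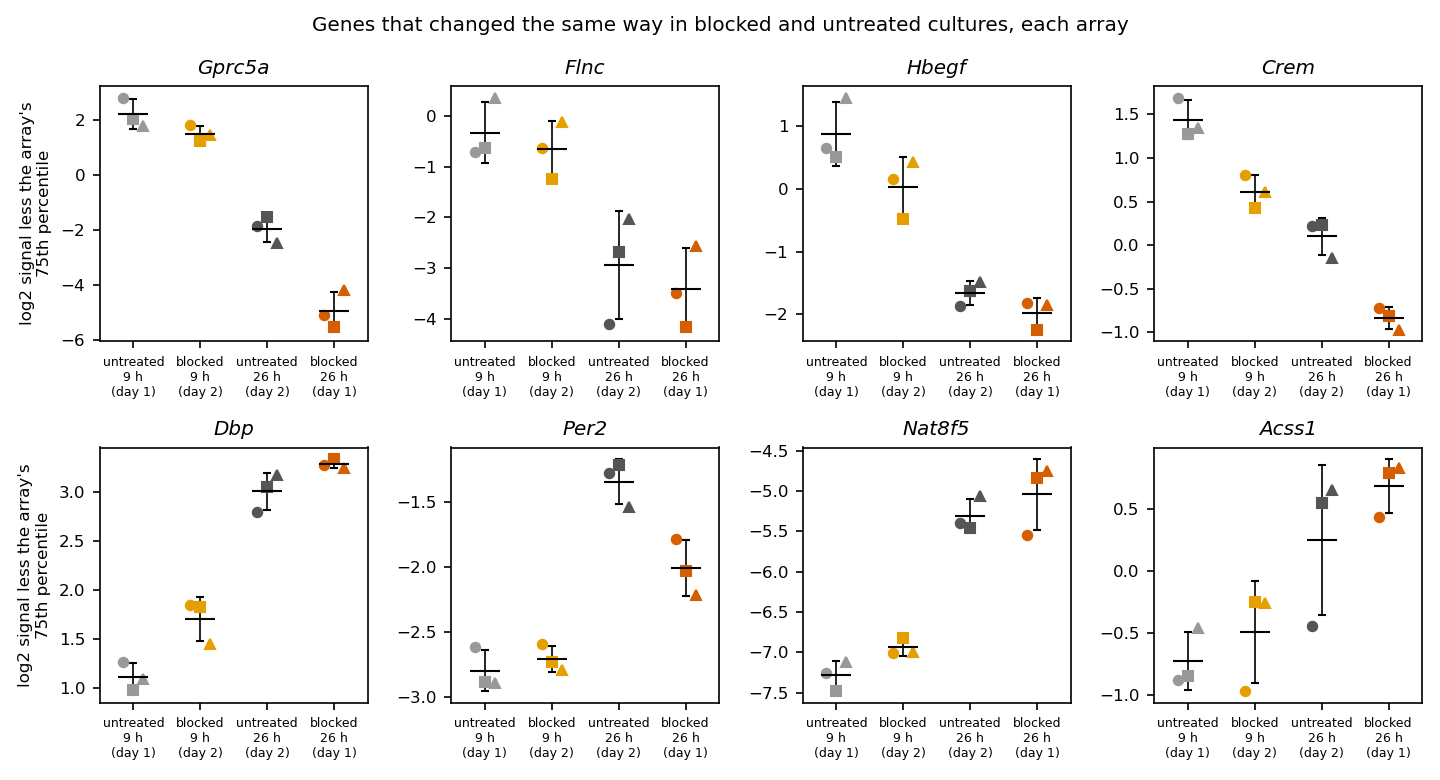
Level of 8 genes that changed the same way in blocked and untreated cultures, on each of the 12 arrays (log2 processed signal less the 75th percentile of the array). Circles, squares and triangles are replicates 1, 2 and 3, and bars give the mean and SD (n = 3). By their means, the 9 h groups lie above the 26 h groups in the upper 4 panels and below them in the lower 4, although each time point spans both scan days.

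Several genes of the synapse fell under blockade and rose in untreated cultures. Among 24 AMPA receptor and auxiliary genes, 2 fell and 1 rose under blockade (8.3% and 4.2%, against 14.5% and 10.5% of all genes). In untreated cultures 9 rose. The replicate block gave 4 falls and 3 rises under blockade. Gria1 changed by 0.12 log2 (SE 0.186, adjusted p = 0.673) and Gria2 by -0.06 log2 (SE 0.107, adjusted p = 0.717), and neither subunit passed. Gria3 rose by 0.58 log2 (adjusted p = 0.00844) on its brightest probe, and by 0.33 log2 in the mean of its 2 kept probes, which did not pass. Cacng3, an auxiliary subunit that moves AMPA receptors to synapses, fell by 1.33 log2 (adjusted p = 0.00134), from -1.86, -2.30 and -2.53 to -3.27, -3.61 and -3.81. It did not rise in untreated cultures (-0.34 log2, adjusted p = 0.249), and its fall was shared.

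Grin1, the obligatory NMDA receptor subunit, fell by 1.38 log2 under blockade (SE 0.162, adjusted p = 0.000652), from -2.15, -2.12 and -2.0 to -3.16, -3.67 and -3.57. In untreated cultures it rose by 0.70 log2 (adjusted p = 0.0135), from -3.14 ± 0.28 to -2.44 ± 0.08 (SD, n = 3). The blocked 26 h arrays did not pass against untreated 9 h arrays of the same scan day (-0.33 log2, adjusted p = 0.229). Grm4, a presynaptic glutamate receptor, fell by 1.40 log2 (adjusted p = 0.000575), from 0.95, 0.56 and 0.67 to -0.76, -0.54 and -0.73. Unlike Grin1, it did not rise in untreated cultures (-0.31 log2, adjusted p = 0.208), and its fall was shared.

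Of 28 genes of the postsynaptic density, 10 fell (35.7%, against 14.5% of all genes) and 1 rose under blockade, and 10 rose and none fell in untreated cultures. Of the 10 falls, 6 were rises in untreated cultures, and without the replicate 3 arrays of all groups 5 falls passed. Baiap2, an actin regulator of spines, fell by 1.25 log2 (adjusted p = 0.000368), Camk2b, a subunit of CaM kinase II, by 0.79 log2 (adjusted p = 0.00204) and Dlgap3, a scaffold, by 1.04 log2 (adjusted p = 0.00173). All 3 rose in untreated cultures, by 0.44, 0.91 and 0.67 log2 (adjusted p = 0.0219, 0.00143 and 0.0148). Of these, Dlgap3 alone was also lower than untreated 9 h arrays, by 0.61 log2 (adjusted p = 0.0305). Syn1, a synaptic vesicle protein, and Dnm1, the dynamin of endocytosis, fell by 0.95 and 0.99 log2 (adjusted p = 0.00105 and 0.00112) and rose in untreated cultures by 0.90 and 0.69 log2 (adjusted p = 0.00156 and 0.00677). For Syn1, blocked 26 h arrays (-0.94 ± 0.08) and untreated 9 h arrays (-0.96 ± 0.15) were at the same level, as were blocked 9 h (0.01 ± 0.05) and untreated 26 h arrays (-0.06 ± 0.24, SD, n = 3). These pairs share their scan day. For such genes an effect of time under blockade and of scan day cannot be told apart.

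At Gabrd and Lrrtm4, blocked 26 h arrays stood apart from every other group. Gabrd, the delta subunit of extrasynaptic GABA-A receptors, fell by 1.19 log2 (SE 0.183, adjusted p = 0.00179), from -1.97, -2.18 and -2.0 to -3.45, -3.42 and -2.86, and lay 1.26 log2 below untreated 9 h arrays (adjusted p = 0.0019). Of 24 genes of inhibitory synapses, 5 fell (20.8%, against 14.5% of all genes) and none rose. Leaving out any blocked array except that of replicate 3 at 9 h left 2 or 3 of these falls, and with the replicate block 2 rose. Of 38 adhesion genes, 8 rose (21.1%, against 10.5% of all genes) and 4 fell, or 15 and 7 with the replicate block. Without the blocked 26 h array of replicate 1 the counts were 5 and 1. Lrrtm4, a postsynaptic organiser of excitatory synapses, rose by 1.14 log2 (SE 0.135, adjusted p = 0.000665), from -1.94, -1.72 and -2.02 to -0.73, -0.64 and -0.90, above all 3 other groups. The mean over its 2 kept probes gave 0.56 log2. Cntn2, an axonal adhesion protein, rose by 0.64 log2 in blocked and 1.24 log2 in untreated cultures (adjusted p = 0.00829 and 0.000589). Erc2, a protein of the presynaptic active zone, rose by 0.85 log2 (adjusted p = 0.00313) on its brightest probe, and the mean of its 2 kept probes (0.23 log2) did not pass.

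Of 22 sodium and calcium channel genes, 7 fell and 1 rose, and of 50 potassium and HCN channel genes, 11 fell and 3 rose (31.8% and 22.0% lower, against 14.5% of all genes). The rises were 4 and 8 with the replicate block. The 11 falls of potassium and HCN genes became 6 without the blocked 9 h array of replicate 3, and 7 without that of replicate 1 or the blocked 26 h array of replicate 1 or 2. Cacnb2, a calcium channel beta subunit, fell by 1.39 log2 (adjusted p = 0.000635), from -3.86, -4.03 and -3.86 to -5.39, -5.22 and -5.30, and Cacna2d1, an alpha2delta subunit, fell by 0.84 log2 (adjusted p = 0.000769). Kcnk3, a leak potassium channel, fell by 1.14 log2 (adjusted p = 0.000625), from -1.47, -1.74 and -1.65 to -2.79, -2.82 and -2.66. All 3 were also lower than both untreated groups. Cacna2d1 rose by 0.51 log2 in untreated cultures (adjusted p = 0.00806), and the average of both its changes did not pass (adjusted p = 0.187). Kcnmb4, the neuronal beta subunit of BK channels, rose by 0.91 log2 (adjusted p = 0.00151) and stood above all 3 other groups. Hcn2, a pacemaker channel, fell by 1.17 log2 (adjusted p = 0.00097) but rose by 0.86 log2 in untreated cultures (adjusted p = 0.00447). Ryr2, a channel that releases stored calcium, showed the same reversal, with -1.0 and 0.55 log2 (adjusted p = 0.00114 and 0.0195). Among 61 calcium and cAMP signalling genes, 14 fell (23.0%) and 4 rose, 6 of the falls with a rise in untreated cultures, and with the replicate block 24 fell and 7 rose.

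Metabolic and stress genes gave mixed counts. Among 33 stress genes, of the unfolded protein response and the integrated stress response, 6 fell (18.2%, against 14.5% of all genes) and none rose, or 13 and none with the replicate block. Slc7a5, an amino acid transporter, fell by 1.30 log2 (adjusted p = 0.00238), from -1.26, -1.75 and -1.27 to -2.82, -2.68 and -2.69, below all 3 other groups. Atf3, a stress-induced factor, fell by 1.18 log2 in blocked and 0.92 log2 in untreated cultures (adjusted p = 0.00166 and 0.00618), and Sesn2, a stress-induced inhibitor of mTORC1, fell by 1.04 log2 (adjusted p = 0.0041). Slc2a1, the glucose transporter GLUT1, fell by 1.23 log2 (adjusted p = 0.000886), from 1.76, 1.46 and 1.70 to 0.31, 0.37 and 0.55, and by 0.62 log2 in untreated cultures (adjusted p = 0.0211). Of 27 glycolysis genes 4 fell (14.8%, near the 14.5% of all genes) and none rose, or 7 and none with the replicate block. Of the 27, 6 were saturated on all 3 arrays of a blocked group, so that their changes are limited at the top. Pfkl, a phosphofructokinase, fell by 0.87 log2 and rose by 0.60 log2 in untreated cultures (adjusted p = 0.00219 and 0.0139).

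Of 49 oxidative phosphorylation genes 8 rose (16.3%) and 1 fell, of 30 proteasome genes 6 rose and 1 fell, and of 26 cholesterol synthesis genes 4 rose (15.4%) and 2 fell. Over all genes 10.5% rose, and among the brightest 4250 genes 17.5% rose and 12% fell. The shares of the lists are close to that of bright genes. Cholesterol synthesis had 7 rises with the replicate block. The 8 rises of oxidative phosphorylation became 4 without the blocked 26 h array of replicate 1, and 5 without the blocked 9 h array of replicate 1 or 3. The 6 of the proteasome became 2 without the replicate 1 array of either blocked group, and 3 without the blocked 26 h array of replicate 3. Sdhd, a subunit of succinate dehydrogenase, rose by 0.64 log2 (adjusted p = 0.00159). No rise of an oxidative phosphorylation gene was shared or apart from all 3 other groups. Of the 49 oxidative phosphorylation genes, 12 were saturated on all 3 arrays of a blocked group, so that their changes are limited at the top. Ebp, Fdft1 and Tm7sf2, enzymes of cholesterol synthesis, rose by 1.1, 0.74 and 0.93 log2 (adjusted p = 0.0116, 0.00626 and 0.0099), and Fdft1 fell by 0.53 log2 in untreated cultures (adjusted p = 0.0314). No cholesterol synthesis gene stood apart from all 3 other groups. Of 71 ribosomal protein genes 3 rose and none fell, 7 and none with the replicate block, but 52 of the 71 were saturated on blocked arrays, so that their changes are bounded by the scanner.

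Of 24 interferon response genes, 6 rose (25.0%, against 10.5% of all genes) and none fell between 9 h and 26 h of blockade. The median change was 0.40 log2 against -0.17 log2 in untreated cultures, where 4 fell. The replicate block gave 10 rises and 2 falls. Irf1, a transcription factor of interferon signalling, rose by 0.67 log2 (adjusted p = 0.00721) and was above both untreated groups, and the mean of its 2 kept probes (0.40 log2) did not pass. Psmb9, an immunoproteasome subunit, rose by 0.76 log2 (adjusted p = 0.00706). Of the 6, Irf1 was the member apart from all 3 other groups.

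The lists not yet given are described by their counts, beside 14.5% lower and 10.5% higher over all genes. Of 22 NMDA, kainate, delta and metabotropic receptor genes 4 fell and 2 rose, of 40 presynaptic genes 6 fell and 3 rose, and of 31 neurotrophins and growth factors 7 fell (22.6%) and 1 rose. With the replicate block the falls of these 3 lists were 7, 13 and 12. Of 21 heat shock chaperones 6 fell (28.6%) and 1 rose, with a median change of 0.09 log2, of 22 chromatin genes 6 fell (27.3%) and 3 rose, and of 45 axon guidance and cytoskeleton genes 8 fell and 6 rose. In the last of these, leaving out a single blocked array left 4 to 6 falls and 3 to 5 rises. Of 32 lysosome and autophagy genes 2 fell and 3 rose.

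Of 24 regulators of cell death, the replicate block gave 10 rises and 5 falls. Without that block 4 rose and 4 fell (16.7% each way, against 10.5% and 14.5% of all genes). Both counts became 2 without the blocked 26 h array of replicate 2, the rises also without the blocked 9 h array of replicate 2, and the falls also without that of replicate 1 or 3. Hrk, a BH3-only activator of apoptosis, rose by 0.51 log2 (SE 0.114, adjusted p = 0.00977), from -0.06, -0.17 and 0.18 to 0.40, 0.51 and 0.57. Its untreated 9 h level was -1.17 ± 0.14 (SD, n = 3). The mean over its 2 kept probes was 0.32 log2 and did not pass. Apaf1, the core of the apoptosome, rose by 1.16 log2 in blocked and 0.55 log2 in untreated cultures (adjusted p = 0.00154 and 0.048), and the mean over its 2 kept probes gave 0.62 log2. Mcl1, a survival protein, fell by 0.67 log2 (adjusted p = 0.00325).

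**Figure D5:**
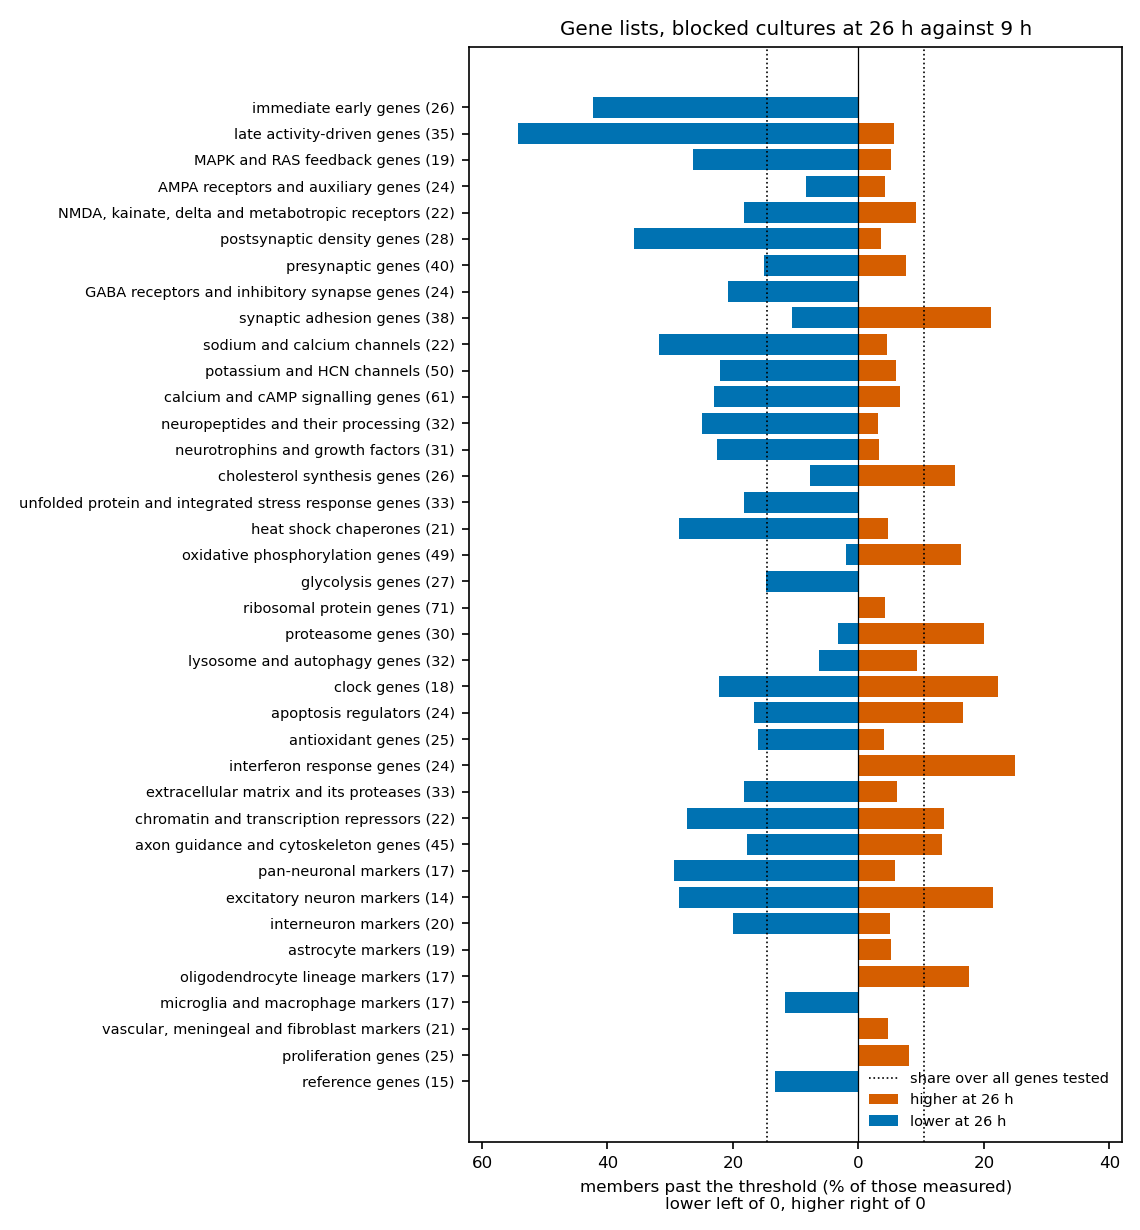
Share of the measured members of 38 gene lists (number measured in brackets) that were past the threshold in blocked cultures at 26 h against 9 h, higher to the right and lower to the left of 0, in percent. Dotted lines mark the shares over all genes, 10.5% higher and 14.5% lower. The lists were chosen with earlier results of these data known. Late activity-driven genes (19 of 35) and immediate early genes (11 of 26) reach farthest to the left, and interferon response genes (6 of 24) farthest to the right.

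Neuronal markers were present in every group, and their members moved in both directions. All 17 pan-neuronal markers measured were above background in both blocked groups, and their summed level was 6.68 to 6.75 log2 at 9 h and 6.44 to 6.61 at 26 h of blockade. Of the 17, 5 fell (29.4%, against 14.5% of all genes) and 1 rose, and leaving out any single blocked array left 2 or 3 falls. Elavl4, a neuronal RNA-binding protein, rose by 0.88 log2 (adjusted p = 0.0101). Of 14 excitatory neuron markers 3 rose and 4 fell (21.4% and 28.6%, against 10.5% and 14.5% of all genes). The falls were 2 without the blocked 26 h array of replicate 3. Bhlhe22, a factor of cortical and hippocampal excitatory neurons, rose by 0.97 log2 (adjusted p = 0.00259), from 2.59, 2.62 and 2.29 to 3.51, 3.52 and 3.38. Slc17a7, the vesicular glutamate transporter VGLUT1, fell by 0.60 log2 (adjusted p = 0.0108). Of 20 interneuron markers 4 fell and 1 rose, and 2 fell without the blocked array of replicate 2 or 3 at 26 h or of replicate 1 or 2 at 9 h. Reln, the secreted protein of Cajal-Retzius cells and interneurons, fell by 0.84 log2 (adjusted p = 0.000629), below all 3 other groups.

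Glial and dividing cell markers changed in few members. Of 19 astrocyte markers, 1 rose and none fell: Aqp4, the astrocyte water channel, at 0.48 log2 (adjusted p = 0.0331), was saturated on 2 of 3 blocked 26 h arrays and lost its call without any blocked array except that of replicate 3 at 9 h, and in the mean over its kept probes. With the replicate block 2 astrocyte markers rose and 4 fell. The summed astrocyte level was 6.82 to 7.20 log2 at 9 h and 6.76 to 7.12 at 26 h of blockade. Of 17 oligodendrocyte lineage markers 3 rose (17.6%, against 10.5% of all genes). Among them were Cspg4, the proteoglycan NG2 (1.04 log2, adjusted p = 0.00246), and Bcas1, a marker of young oligodendrocytes (0.93 log2, adjusted p = 0.0236). The summed level of this list was 3.83 to 4.37 log2 at 9 h and 4.0 to 4.44 at 26 h. The call of Bcas1 ended without the blocked array of replicate 2 or 3 at 26 h or of replicate 1 or 3 at 9 h, and in the mean over its kept probes, which gave 0.56 log2. Cspg4 also stands on the vascular list, where it was the 1 of 21 markers that rose, against 5 that rose and 2 that fell with the replicate block. The same block gave 2 falls among the oligodendrocyte lineage markers. Proliferation genes gave 2 rises among 25, or 7 rises and 4 falls with the block: Mcm3, a replication helicase subunit, and Kif11, a mitotic motor (1.36 and 1.02 log2, adjusted p = 0.0164 and 0.024). Both calls ended without the blocked 26 h array of replicate 3 or the blocked 9 h array of replicate 1, and that of Kif11 also without the 26 h array of replicate 2. The call of Mcm3 ended in the mean over its 2 kept probes (0.87 log2) and that of Kif11 in a fit of the 6 blocked arrays alone, and Kif11 rose by 0.64 log2 with normexp. Of 17 microglia markers 2 fell (11.8%, against 14.5% of all genes). Fcer1g, an Fc receptor subunit, fell by 1.47 log2 (adjusted p = 0.00843), or by 0.85 log2 with normexp. Itgam was not above background on any blocked 26 h array, at least 2.25-fold lower (adjusted p = 0.026), and its call ended without any of the blocked arrays except those of replicates 2 and 3 at 9 h, and with normexp (-0.87 log2). The part of these markers in the other results was not tested. Among 15 reference genes 2 fell and none rose, or 3 and 2 with the block, with a median of -0.32 log2, and Gapdh changed by -0.41 log2 (SE 0.172, adjusted p = 0.114), saturated on 3 blocked 9 h and 2 blocked 26 h arrays.

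Some of the largest changes under blockade reversed in full in untreated cultures. Klf12, a Krüppel-like repressor, read -1.90, -1.46 and -0.47 at 9 h of blockade and -5.49, -5.07 and -4.88 at 26 h, a change of -3.87 log2 (SE 0.443, adjusted p = 0.000605). In untreated cultures it rose by 4.04 log2 (adjusted p = 0.00056), so that the 2 groups of each scan day were alike (blocked 26 h -5.15 ± 0.31 and untreated 9 h -5.23 ± 0.65, SD, n = 3). The mean over its 2 kept probes gave -1.87 log2. Alx4, a homeobox factor, and Aadacl4fm1, an esterase-like gene, did the same, with -3.71 and 3.35 log2 for Alx4 (adjusted p = 0.00977 and 0.018). Alx4 was well above background on 2 of the 3 arrays of blocked 26 h and of untreated 9 h cultures. Aadacl4fm1 was at least 4.01-fold lower under blockade (adjusted p = 0.0123). With normexp the blocked changes of Alx4 and Aadacl4fm1 were -2.02 and -1.07 log2. Fzd6, a Wnt receptor, did so in the other direction, with a rise of 1.89 log2 under blockade and a change of -2.24 log2 in untreated cultures (adjusted p = 0.000635 and 0.000331). In the mean of its 2 kept probes the rise of Fzd6 was 0.82 log2 and did not pass, and with normexp it was 1.03 log2. For these genes time under blockade and scan day cannot be told apart.

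Further large rises lay near the level of an untreated group or near background. Ckm, the muscle creatine kinase, rose by 2.24 log2 (SE 0.5, adjusted p = 0.00977) and lay near the untreated 9 h level of its scan day (-4.22 ± 1.13 and -4.84 ± 0.20, SD, n = 3), and its rise was 1.16 log2 with normexp. H1f5, a linker histone, rose by 1.86 log2 (adjusted p = 0.00369), Myzap, a cell junction protein, by 1.73 log2 (adjusted p = 0.00326) and Dsn1, a kinetochore subunit, by 1.63 log2 (adjusted p = 0.00202). None of these 3 passed against untreated 9 h or 26 h arrays. Or51a25, an olfactory receptor of a large family, was well above background on 1 of 3 blocked 9 h arrays and rose by 1.94 log2 (adjusted p = 0.0178), and its call ended without the blocked 26 h array of replicate 1 and with normexp background correction (0.19 log2). Over all genes, the share of rises grew with the level, from 2.6% among the dimmest 4250 genes to 17.5% among the brightest 4250. The share of falls was 8.1%, 14.1%, 19.3%, 19.2% and 12% from the dimmest to the brightest of the 5 groups of equal size, so that it dropped again at the top.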

How the data were processed

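RNA of 12 cultures was measured on one-colour Agilent arrays (200 ng, Cy3, per the labels' protocols). The authors deposited the scanner output, whose processed signal intensity is background-subtracted, per the file headers (Feature Extraction 10.5.1.1, design build rn4). The deposited value table holds log2 values that equal log2 of that intensity minus 1 constant per array, and how the constants were set is not given in the sources used here; it served as an alternative.

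From the intensity, log2 minus the 75th percentile of each array was taken, outlier spots were dropped, and probes were kept that every array of some group read well above background (24034 of 30367). Of the probes, 18004 matched a gene through RefSeq's table. A gene is its brightest kept probe. limma 3.58.1 (R 4.3.3) fitted all 12 arrays with 4 group means, with Benjamini-Hochberg adjustment over 21250 genes. The fit was run on simulated data with independent noise on each array. These held no effect of slide, replicate or scan day, so that the check does not cover such effects.

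The scan days cross the groups, so that 6 slides and 2 days cannot be told apart from the difference of the 2 time changes. Replicate numbers paired the samples: the deviations of same-numbered blocked arrays correlated at 0.477, 0.254 and 0.635. Where the labels' independent cultures share a preparation is not stated. The number of arrays limits the precision (median SE 0.17 log2).

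The members and gene lists were chosen with earlier results of these data known. Genes were named by rule: the largest changes, the largest shared and apart changes, up to 4 members of each list by adjusted p, and a short list fixed by name, from which those in the text were taken. Promoters are from RefSeq on GRCr8. Some genes are not reported here.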

Additional observations from a re-analysis of the deposited data

Results flagged for a closer look

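For 69 of the named genes the change between 9 h and 26 h in blocked cultures differed from that in untreated cultures by limma's test of the difference at an adjusted p of 0.05. Each value below is the blocked change minus the untreated change in log2. The blocked change was the lower one by these log2 differences: -7.92 for Klf12, -7.06 for Alx4, -2.73 for Nr4a1 and -2.45 for Fcer1g. Differences of smaller size followed: -2.44 for Pthlh, -2.28 for Gprc5a, -2.27 for Nfil3, -2.07 for Grin1, -2.03 for Hcn2, -1.94 for Arc, -1.85 for Dusp10 and -1.85 for Syn1. Next came -1.73 for Dusp1, -1.72 for Slc7a5, -1.71 for Dlgap3, -1.7 for Camk2b, -1.69 for Baiap2, -1.67 for Dnm1, -1.63 for Bdnf and -1.63 for Egr1. Below these in size were -1.55 for Ryr2, -1.54 for Per3, -1.49 for Gabrd, -1.47 for Pfkl, -1.35 for Cacna2d1, -1.24 for Kcnk3, -1.24 for Rgs4 and -1.09 for Grm4. The remaining negative differences included -1.06 for Cacnb2, -1.02 for Reln, -0.99 for Cacng3, -0.99 for Mmp13, -0.98 for Adcyap1, -0.85 for Slc17a7, -0.78 for Gria2, -0.76 for Per2 and -0.73 for Crh. The smallest of this sign were -0.68 for Trpc6 and -0.6 for Cntn2. The blocked change was the higher one by 0.6 for Aqp4, 0.6 for Gria3, 0.7 for Irf1, 0.7 for Hrk, 0.82 for Sdhd, 0.91 for Lrrtm4, 1.09 for Elavl4, 1.11 for Erc2 and 1.11 for Cspg4. Further positive differences were 1.16 for Bcas1, 1.16 for Rspo3, 1.18 for Pde1a, 1.21 for Kif11, 1.26 for Il34, 1.26 for Fdft1, 1.3 for Apln, 1.31 for Kcnmb4 and 1.4 for Tm7sf2. The largest positive differences were 1.65 for Dsn1, 1.7 for Majin, 1.71 for H1f5, 1.76 for Ces1d, 2.41 for Or51a25, 3.38 for Ckm and 4.13 for Fzd6. For 5 genes the difference is a fitted value that has no exact size or rank, because their probes were not well above background on any blocked 26 h array: -6.0 for Aadacl4fm1, -3.84 for Npas4, -3.48 for Nmbr, -2.69 for Tmprss11d and -2.13 for Sele. Those of Alx4, Dusp10, Mmp13 and Or51a25 rest on 1 or more groups in which only some arrays were well above background. For every one of these genes the difference runs along the scan days, and an effect of blockade and of scan day on it cannot be told apart.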

How the results depend on the processing

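Of 2220 values of single named genes under the alternatives, 1999 kept direction and side of the threshold, 216 lost the call, 4 gained it and 1 reversed: Per3, with 0.087 log2 as the mean over its kept probes. The cause was not tested. With the replicate block, the calls in blocked cultures were 8785 (3740 higher, 5045 lower), in untreated cultures 7324 (3767 and 3557), in the difference of both 9509 (4225 and 5284), in their average 5689 (2503 and 3186) and apart from all 3 other groups 1883 (807 and 1076). That block ended no call of a named gene. An alternative added after seeing the data, only the 6 blocked arrays with the replicate block, gave 8529 (3698 and 4831). With slide as a random block, the difference had 3530 calls (1546 and 1984), the average 6031 (2602 and 3429), and 437 genes stood apart as higher. With no filter on dim probes, 3160 were lower in untreated cultures and 4463 higher in the difference. Normexp ended the calls of Npas4, Or51a25 and Itgam. It moved the value of 28 called genes by over 1.5 times, each given beside its result, and 13 of these are genes given as a bound. For all 13 the fold with normexp was below the bound, so that the bounds hold only for the processed signal used here.

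Leaving out arrays of the groups compared gave 15 to 4033 calls in blocked cultures (3 to 1606 higher, 12 to 2505 lower). For untreated cultures the range was 14 to 4007 (0 to 2198 and 14 to 2139). Leaving out a single untreated array, which enters the shared estimate of spread, gave 4740 to 5791 calls in blocked cultures. The difference had 3 to 6187 (3 to 2914 and 0 to 3667), the average 164 to 2572 (21 to 949 and 143 to 1751), and 1 to 762 genes stood apart (0 to 335 and 1 to 473). The lowest counts in blocked cultures were without replicate 2 of every group. A gene not well above background on any array of a group has only a bound there, values of genes above background on some arrays are imprecise, and saturated ones are limited at the top.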
